A study of Mus musculus with 6 samples.

Results

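The 37 genes described here encode transcription factors that set up or subdivide the nervous system. They are 5 Pax genes with Sox1, 8 proneural basic helix-loop-helix genes, 7 Olig and Nkx genes, 7 LIM homeodomain genes, and 9 forebrain homeodomain and POU genes. They were chosen by name, and each was followed in a window from 5000 bp before to 5000 bp after its GRCm38 gene span. In these windows 1416 of the 448072 positions listed in any deposited table were found. All 37 genes had at least 1 listed position and are counted below, among 27819 genes with at least 1 listed position in the same kind of window.

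DNA methylation had been measured by reduced representation bisulfite sequencing, in which fragments cut at CpG-rich sites are treated so that unmethylated cytosines read as thymines. The libraries came from 6 mouse in vitro lines, all of the strain OG2. GSC is 1 line of germline stem cells. The iPSC are 2 independent pluripotent lines induced from GSC, and the gPSC are 2 independent pluripotent lines derived from the germline. ESC is 1 line of embryonic stem cells. GSC and each iPSC and gPSC line have 2 tables, of positions that were more methylated (hyper) and of positions that were less methylated (hypo). The tables do not name the library they are set against, and it is taken to be ESC, the only library without tables. Every listed position had a q-value of at most 0.01 and a difference of at least 25 percentage points in the authors' own test of 1 library against 1 library. Coverage and methylation levels are not in the tables, so the depth is unknown, and a position missing from a table may be unchanged or unmeasured. They hold no expression values either, so the labelled cell types were not checked against marker genes. The labels give no treatment or passage.

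Many transcription factors of this kind, though not all, are silent or nearly silent in pluripotent cells and are switched on in restricted regions of the neural plate and neural tube. Their starts mostly lie in CpG islands, stretches dense in CpG that are usually free of methylation, and in embryonic stem cells many of them carry both Polycomb and activating histone marks. Pax and Sox genes mark broad neural territory, proneural genes start neuronal differentiation, Olig and Nkx genes pattern the ventral tube, and LIM, Otx, Emx and Dlx genes set regional and neuronal identity. A RefSeq sequence from 250 bases before to 50 bases after a start (GRCm38.p6) was found for 32 of the 37 genes. The median number of CpGs in it was 23 over these members, against 8 over 27025 genes with such a sequence, and 87.5% of members had at least 10, against 45.8% of all genes.

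The 5 starts below hold the most listed positions among the members described in full, and they do not stand for the whole family. Many member starts held no listed position. Neurog3, with 11 listed sites at its start, and Dlx2, with 8, are not among the 5. At the Neurog3 start in iPSC 1 both strands held both directions. There were 4 hyper and 1 hypo positions on the gene's strand, and 1 hyper and 5 hypo on the opposite strand. Each sequence below is written 5′ to 3′ on the strand of its gene. A capital C is a listed cytosine on that strand, and a capital G is the base paired with a listed cytosine on the opposite strand. Every listed position in the RefSeq starts of the members was a CpG cytosine, 124 of 124 when each position is counted once per library.
Lhx4, chr1:155741978-155742277, minus strand: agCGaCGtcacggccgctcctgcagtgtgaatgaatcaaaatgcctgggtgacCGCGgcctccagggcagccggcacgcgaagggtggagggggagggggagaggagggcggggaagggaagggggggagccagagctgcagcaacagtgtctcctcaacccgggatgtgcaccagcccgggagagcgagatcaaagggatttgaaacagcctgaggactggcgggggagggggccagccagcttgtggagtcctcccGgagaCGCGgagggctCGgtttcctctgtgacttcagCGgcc
Pax6, chr2:105668646-105668945, plus strand: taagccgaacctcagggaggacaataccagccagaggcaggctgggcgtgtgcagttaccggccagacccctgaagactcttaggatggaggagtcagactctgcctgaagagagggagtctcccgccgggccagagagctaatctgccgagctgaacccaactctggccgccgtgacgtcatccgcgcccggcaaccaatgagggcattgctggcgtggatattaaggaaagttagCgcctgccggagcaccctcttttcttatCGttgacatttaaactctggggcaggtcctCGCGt
Neurog1, chr13:56252131-56252430, minus strand: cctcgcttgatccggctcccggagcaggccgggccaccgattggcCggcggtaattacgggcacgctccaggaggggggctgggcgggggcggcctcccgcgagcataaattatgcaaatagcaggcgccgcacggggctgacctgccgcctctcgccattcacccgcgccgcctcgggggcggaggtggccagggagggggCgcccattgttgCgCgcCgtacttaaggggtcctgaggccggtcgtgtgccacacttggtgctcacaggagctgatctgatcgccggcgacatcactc
Nkx6-2, chr7:139582748-139583047, minus strand: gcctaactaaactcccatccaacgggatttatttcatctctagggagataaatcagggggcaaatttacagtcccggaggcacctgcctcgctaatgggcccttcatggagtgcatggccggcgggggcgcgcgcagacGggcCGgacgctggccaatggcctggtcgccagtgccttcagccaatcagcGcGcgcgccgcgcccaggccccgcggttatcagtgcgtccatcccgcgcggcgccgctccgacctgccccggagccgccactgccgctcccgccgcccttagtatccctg
Pax2, chr19:44756656-44756955, plus strand: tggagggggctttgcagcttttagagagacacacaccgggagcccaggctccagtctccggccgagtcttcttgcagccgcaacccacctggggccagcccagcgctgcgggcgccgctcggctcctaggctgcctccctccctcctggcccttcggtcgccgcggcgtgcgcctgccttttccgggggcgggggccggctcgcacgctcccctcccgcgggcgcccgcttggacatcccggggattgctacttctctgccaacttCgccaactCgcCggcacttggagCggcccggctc

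Lhx4 encodes a LIM homeodomain factor of motor neurons and the pituitary. Of its 17 listed cytosines, the 8 on the gene's own strand were hyper wherever they were listed and the 9 on the opposite strand were hypo wherever they were listed. In GSC the 4 listed on the own strand averaged 37.6 points and the 4 on the opposite strand −37.4 points. The 2 values were 32.1 and −33.4 points in iPSC 1, 30.6 and −30.4 points in gPSC 1, and 30.4 and −31.3 points in gPSC 2, and none was listed there in iPSC 2. The cytosines of 1 CpG, which face each other across the strands, were therefore listed in opposite directions with nearly the same size. The strand column of the tables holds + at every position, and how strands were handled before deposit was not given in the sources used here. Whether such values are differences in methylation between the strands therefore cannot be told, here and wherever own-strand and opposite-strand values are set side by side.

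Pax6, the regulator of eye and forebrain development, had the reverse arrangement at its first start. Its 4 own-strand cytosines averaged −37.3 points and its 3 opposite-strand cytosines 33.3 points, and they were listed in iPSC 2 alone. Nkx6-2, a factor of ventral progenitors and oligodendrocytes, had a single own-strand cytosine that was hypo in all 5 libraries. Its difference was −57.1 points in GSC, −64.2 points in iPSC 1, −56.8 points in iPSC 2, −62.4 points in gPSC 1 and −36.6 points in gPSC 2. The 4 opposite-strand cytosines of this start were hyper where listed, up to 59.5 points in iPSC 2, and none of them was listed in gPSC 1.

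The starts of Neurog1 and Pax2 were different in form, since in both sequences only cytosines of the gene's own strand were listed. Whether the opposite strand was measured there is unknown, so the limit on strands given for Lhx4 applies here too. Neurog1 drives sensory neuron formation, and 4 own-strand cytosines between −48 and −31 bp from its start were hyper in 4 libraries. They averaged 69.7 points in GSC, 82.4 points in iPSC 2, 62.3 points in gPSC 1 and 65.7 points in gPSC 2, and were not listed in iPSC 1. No cytosine of the opposite strand was listed there. The fifth capital, at −205 bp, was hypo in gPSC 1 and gPSC 2, at −65.3 and −72.7 points. Pax2, a factor of the midbrain-hindbrain boundary, eye and kidney, had 8 hypo positions from 16 to 106 bp after its start in gPSC 2, with a mean of −88.0 points. The 4 of them that fall in the sequence above averaged −96.5 points, and this start held no listed position in the other 4 libraries.

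Over the whole of the windows the members had 713 listed positions in GSC (463 hyper and 250 hypo), 355 in iPSC 1 (198 and 157), 480 in iPSC 2 (290 and 190), 449 in gPSC 1 (262 and 187) and 431 in gPSC 2 (288 and 143). Hyper positions were the majority in every library, but less so than over all listed positions. Their share was 64.9% in GSC, against 82.9% of all listed positions, and 55.8% against 82.4% in iPSC 1. It was 60.4% against 78.2% in iPSC 2, 58.4% against 82.0% in gPSC 1, and 66.8% against 87.2% in gPSC 2. These shares are descriptions of single libraries and were not tested.

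**Figure D1:**
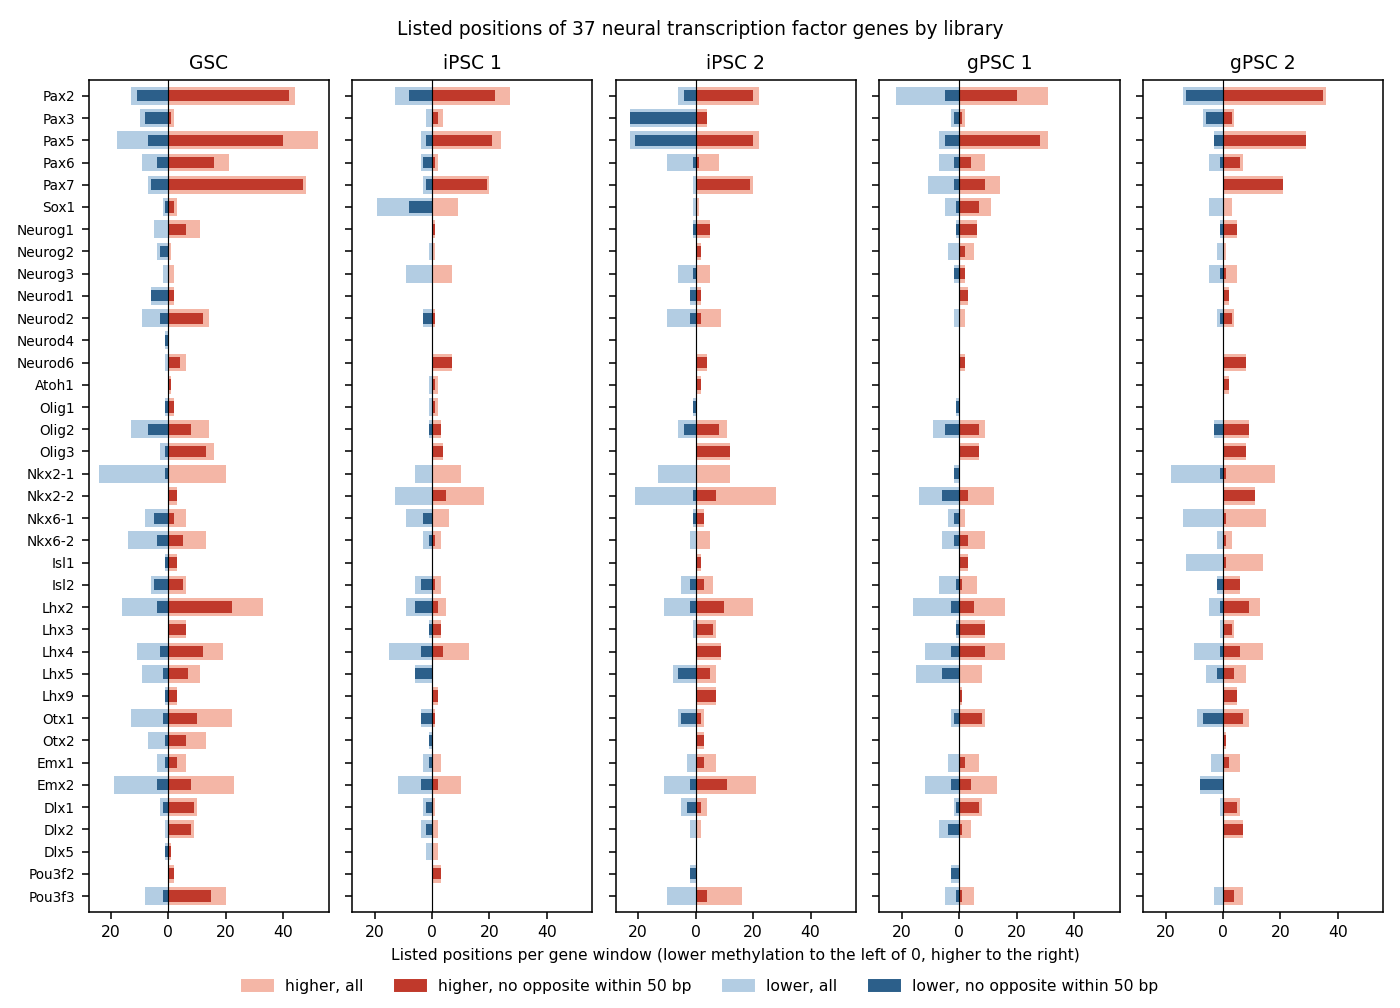
Listed positions in the window of each member (rows) in the 5 libraries (panels), with hyper positions to the right of 0 and hypo positions to the left. Pale bars are all listed positions and dark bars those without an opposite listed position within 50 bp. Pax2, Pax5 and Pax7 have the longest dark bars to the right, and the bars of Nkx2-1 are almost wholly pale.

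Much of this balance lay in positions listed 1 bp apart. In the member windows 125 of 142 such pairs were opposite in direction in GSC, 81 of 84 in iPSC 1, 105 of 107 in iPSC 2, 99 of 100 in gPSC 1 and 84 of 86 in gPSC 2. Over all listed positions the opposite share was 63.3% in GSC, 83.7% and 87.0% in iPSC 1 and 2, and 86.7% and 79.3% in gPSC 1 and 2. The sum of both differences lay within 5 points of 0 in 78.1% to 85.7% of the opposite member pairs. The 25 pairs with the same direction were all hyper, and they fell in 9 genes: Emx2, Neurod6, Nkx6-2, Olig2, Olig3, Otx1, Pax2, Pax7 and Pou3f3. Nearly all same-direction pairs were hyper over all listed positions too. They numbered 11455 of 11484 in GSC, 2369 of 2393 in iPSC 1 and 1958 of 1984 in iPSC 2. In gPSC 1 they numbered 2388 of 2415, and in gPSC 2 2871 of 2891. The part of strand handling in the opposite pairs was not tested. Results are therefore given for all listed positions and for unopposed positions, those with no listed position of the other direction within 50 bp in the same library.

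**Figure D2:**
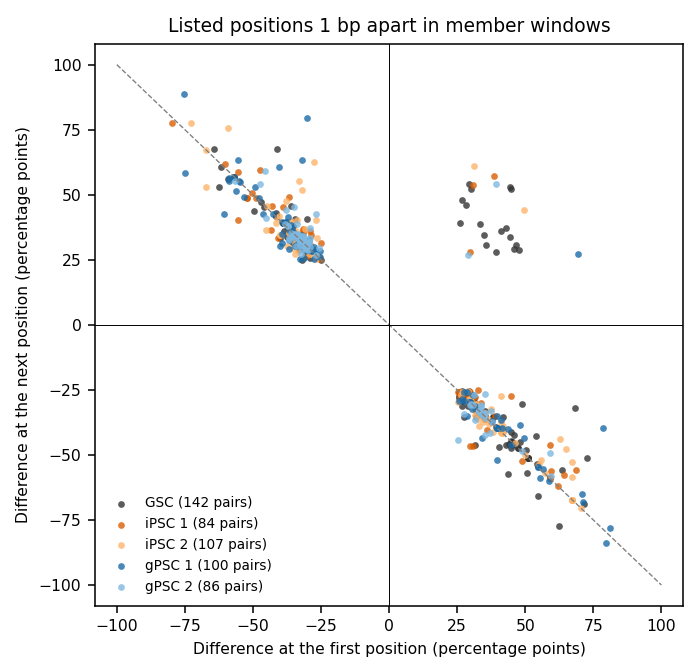
Differences at listed positions 1 bp apart in member windows, the first position on the horizontal axis and the next on the vertical axis, in percentage points; colours are libraries and the dashed line marks a sum of 0. Most pairs lie along the dashed line, and the 25 pairs with the same direction all lie in the upper right.

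Opposed positions were more frequent in the member windows than in the tables as a whole. They made up 41.2% of the member positions in GSC against 17.1% of all listed positions, 51.3% against 19.0% in iPSC 1, 45.4% against 19.1% in iPSC 2, 50.8% against 21.3% in gPSC 1 and 41.1% against 15.2% in gPSC 2. The CpG density given above differs in the same direction, and its part in this was not tested. Among unopposed positions the members had 321 hyper and 98 hypo in GSC, 107 and 66 in iPSC 1, 178 and 84 in iPSC 2, 155 and 66 in gPSC 1, and 203 and 51 in gPSC 2. Their hyper share, 61.8% to 79.9% over the 5 libraries, stayed below that of all unopposed positions, 84.6% to 93.6%.

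A gene was called hyper or hypo where its window contained 3 or more listed positions with that direction and these made up 80% or more of all it contained. It was called mixed where it contained 3 or more listed positions and neither direction reached that share. In GSC 6 members were called hyper, against 40.3% of all genes, and 2 were called hypo, against 2.12%. The hyper ones were Pax7, Neurod6, Olig3, Nkx2-2, Lhx3 and Dlx2, and the hypo ones were Pax3 and Neurog2. Mixed windows numbered 25 of 37, against 24.5% of all genes. Member windows held a median of 10.6 listed positions per library, against 3.6 for all genes.

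Both iPSC lines called 3 members hyper, namely Pax7, Neurod6 and Olig3, against 16.7% of all genes. Both gPSC lines called 5 members hyper, namely Pax5, Neurog1, Olig3, Lhx3 and Dlx1, against 22% of all genes. No member was called hypo in both lines of either kind, against 0.191% of all genes in iPSC and 0.155% in gPSC. Mixed in both lines were 15 members in iPSC, against 11.1% of all genes, and 17 members in gPSC, against 8.84%. In single lines, hyper members numbered 5 in iPSC 1 against 27% of all genes, 8 in iPSC 2 against 26.8%, 7 in gPSC 1 against 29.8%, and 10 in gPSC 2 against 35.8%. Hypo members numbered 2 in iPSC 1 against 1.66%, 1 in iPSC 2 against 1.87%, 1 in gPSC 1 against 1.26%, and 1 in gPSC 2 against 1.09%. Mixed members numbered 22 in iPSC 1 against 18.4%, 20 in iPSC 2 against 26.4%, 21 in gPSC 1 against 22.9%, and 19 in gPSC 2 against 14.5%.

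With unopposed positions alone the hyper count was higher, most of all in GSC, where 16 members were called against 45.5% of all genes. The count was 6 in iPSC 1 against 29.8%, 14 in iPSC 2 against 30.5%, 11 in gPSC 1 against 34.1%, and 14 in gPSC 2 against 38.7%. Both iPSC lines then called 4 members, against 19.7%, and both gPSC lines 6, against 25.8%. The member share of hyper calls was below the background over both lines of each kind under either way of counting. In GSC it was near the background for unopposed positions, and in iPSC 2 above it. Hypo calls from unopposed positions numbered 2 in GSC against 2.9% of all genes, 5 in iPSC 1 against 2.07%, 1 in iPSC 2 against 2.46%, 3 in gPSC 1 against 1.7%, and 1 in gPSC 2 against 1.28%. They were 0 over both iPSC lines against 0.327%, and 0 over both gPSC lines against 0.226%. Mixed windows were fewer, 13 in GSC against 13.3%, 8 in iPSC 1 against 8.43%, 9 in iPSC 2 against 15.4%, 9 in gPSC 1 against 10.3%, and 7 in gPSC 2 against 6.09%. Mixed over both iPSC lines were 2 members against 3.63%, and over both gPSC lines 2 against 2.03%.

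**Figure D3:**
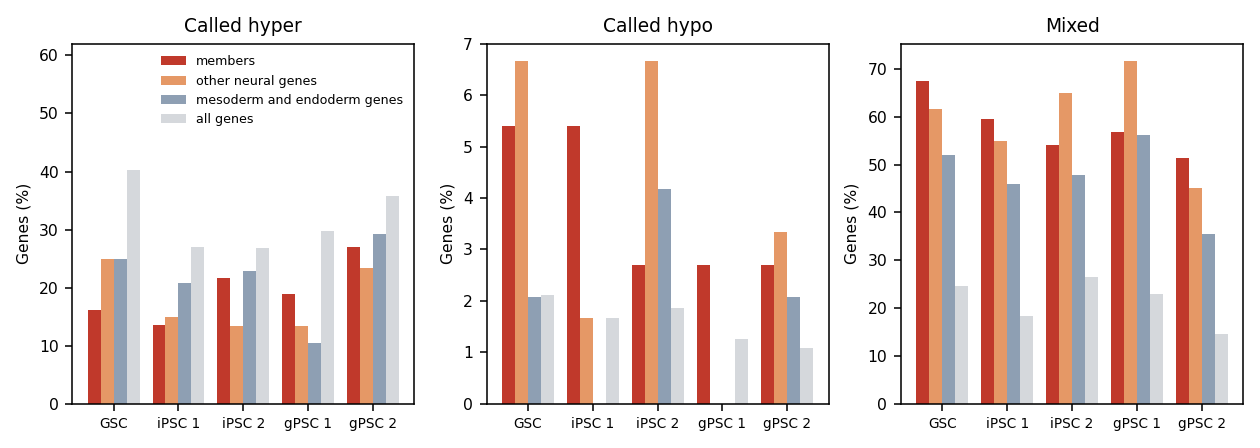
Share of genes called hyper, hypo or mixed from all listed positions (3 panels, in percent) in each library, for the 37 members, 60 other neural genes, 48 mesoderm and endoderm genes and all 27819 genes. The member bars stand below the bars of all genes for hyper and above them for mixed in all 5 libraries.

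Of the 37 members, 10 were mixed in all 5 libraries, against 3.26% of all genes, namely Pax2, Pax6, Neurog3, Neurod2, Olig2, Nkx6-1, Nkx6-2, Isl2, Lhx2 and Emx1. Olig3 was the only member with the same one-directional call in every library, and 10.8% of all genes were hyper in every library. Lhx5 and Otx1 shared a pattern of their own, hypo in iPSC 1 and mixed in the other 4 libraries, and Nkx2-2 and Dlx2 were both hyper in GSC and gPSC 2 and mixed elsewhere. Neurod4, a late proneural factor, had a single listed position in all tables, hypo at −65.2 points in GSC.

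Among the Pax genes and Sox1, hyper positions outnumbered hypo positions in every library for Pax2 and Pax7, and in every library but iPSC 2 for Pax5. Pax7, a factor of the dorsal neural tube and of muscle stem cells, spans 96472 bp at chr4:139737059-139833530. It had 48 hyper and 7 hypo positions in GSC, 20 and 3 in iPSC 1, 20 and 1 in iPSC 2, 14 and 11 in gPSC 1, and 21 and 0 in gPSC 2. Every library but gPSC 1 thus had at least 80% hyper positions, and in gPSC 1 removal of opposed positions left 9 hyper and 2 hypo. The adjacent positions chr4:139762068 and chr4:139762069, far inside the gene, were both hyper in 3 libraries. Their differences were 38.5 and 57.3 points in iPSC 1, 31.0 and 61.2 points in iPSC 2, and 39.3 and 54.3 points in gPSC 2.

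Pax5, a B cell and midbrain factor that spans 185947 bp, had 52 hyper and 18 hypo positions in GSC, 24 and 4 in iPSC 1, 22 and 23 in iPSC 2, 31 and 7 in gPSC 1, and 29 and 3 in gPSC 2. The line iPSC 2 stood apart by its hypo positions. They included 8 positions at chr4:44664421-44664467 with a mean of −61.8 points and 6 positions at chr4:44664141-44664250 with a mean of −77.6 points, between 46227 and 46553 bp after the start used here. Pax2 had 44 hyper and 13 hypo positions in GSC, 27 and 13 in iPSC 1, 22 and 6 in iPSC 2, 31 and 22 in gPSC 1, and 36 and 14 in gPSC 2. An intronic stretch at chr19:44783677-44783761 was hyper in all 5 libraries. Its 3 positions averaged 77.9 points in GSC, 64.1 points in iPSC 1, 70.8 points in gPSC 1 and 57.3 points in gPSC 2, and a stretch of 4 positions that contains it averaged 55.8 points in iPSC 2.

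Pax3, a neural crest and dorsal tube factor, held the longest hypo stretch of the family. In iPSC 2 all 22 listed positions at chr1:78189601-78189788 were hypo, between −65.3 and −36.7 points with a mean of −48.4 points. Overlapping stretches had 6 hypo positions with a mean of −52.6 points in gPSC 2 and 4 with a mean of −47.3 points in GSC. The whole window had 10 hypo against 2 hyper positions in GSC and 23 against 4 in iPSC 2, both called hypo, while iPSC 1, gPSC 1 and gPSC 2 were mixed. Pax6 had 21 hyper and 9 hypo positions in GSC, 2 and 4 in iPSC 1, 8 and 10 in iPSC 2, 9 and 7 in gPSC 1, and 7 and 5 in gPSC 2. Sox1, among the earliest markers of the neural plate, had 9 hyper and 19 hypo positions in iPSC 1, against 1 of each in iPSC 2. Its unopposed stretch of 8 hypo positions in iPSC 1, 1951 to 2024 bp after the start, averaged −44.1 points.

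The 8 proneural genes are short and had few listed positions, at most 37 hyper and 28 hypo, in GSC. Neurod6, a factor of cortical and hippocampal neurons, had 6 hyper and 1 hypo position in GSC, then 7, 4, 2 and 8 hyper positions in iPSC 1, iPSC 2, gPSC 1 and gPSC 2 with no hypo one. Before its start the position chr6:55683741, at −2478 bp, was hyper by 81.3 points in iPSC 1, 86.2 points in gPSC 1 and 73.9 points in gPSC 2, and chr6:55683907, at −2644 bp, by 72.8 points in iPSC 1, 65.2 points in iPSC 2 and 73.7 points in gPSC 2. None of the positions before this start was listed in GSC.

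Neurog1 had 11 hyper and 5 hypo positions in GSC, 1 and 0 in iPSC 1, 5 and 1 in iPSC 2, 6 and 1 in gPSC 1, and 5 and 1 in gPSC 2. The 4 positions before its start that were described above make up most of the hyper ones in iPSC 2 and both gPSC lines. In GSC the stretch from 65 to 125 bp after the start held 5 pairs of adjacent positions in which 1 was hyper by 44.6 to 53.9 points and the other hypo, between −47.2 and −42.8 points. Neurog2 was called hypo in GSC, with 4 hypo positions and 1 hyper position. Neurod1, a driver of neuronal and endocrine differentiation, had 6 hypo positions from −2541 to −2507 bp in GSC, with a mean of −89.9 points. In the rest of the libraries its window held 2 hypo positions in iPSC 2 and none in iPSC 1, gPSC 1 or gPSC 2. Neurod2 had a stretch of 10 hyper positions from −4924 to −4787 bp in GSC, with a mean of 58.1 points. Neurog3 had as many hypo as hyper positions to within 2 in every library, and no unopposed position in GSC or iPSC 1. Atoh1, the factor of cerebellar granule cells and hair cells, had 3 or fewer listed positions in any library.

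Of the Olig and Nkx genes, Olig3 (chr10:19356539-19358604), a factor of dorsal progenitors, was hyper throughout. It had 16 hyper and 3 hypo positions in GSC and 4, 12, 7 and 8 hyper positions in iPSC 1, iPSC 2, gPSC 1 and gPSC 2, with no hypo one in these 4. The position at −630 bp from the start was hyper by 51.7 points in GSC, 42.3 points in iPSC 1, 28.2 points in iPSC 2 and 50.5 points in gPSC 2. None of the listed positions lay inside the gene itself. They lay between −3715 and −623 bp from its start, or from 5209 to 6571 bp after it and beyond the gene's end. In this distal part GSC and the pluripotent lines used partly different positions, since each pluripotent line had listed positions at 6453 to 6489 bp and GSC had none there, while those at 5209 to 5226 bp were listed in GSC alone.

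**Figure D4:**
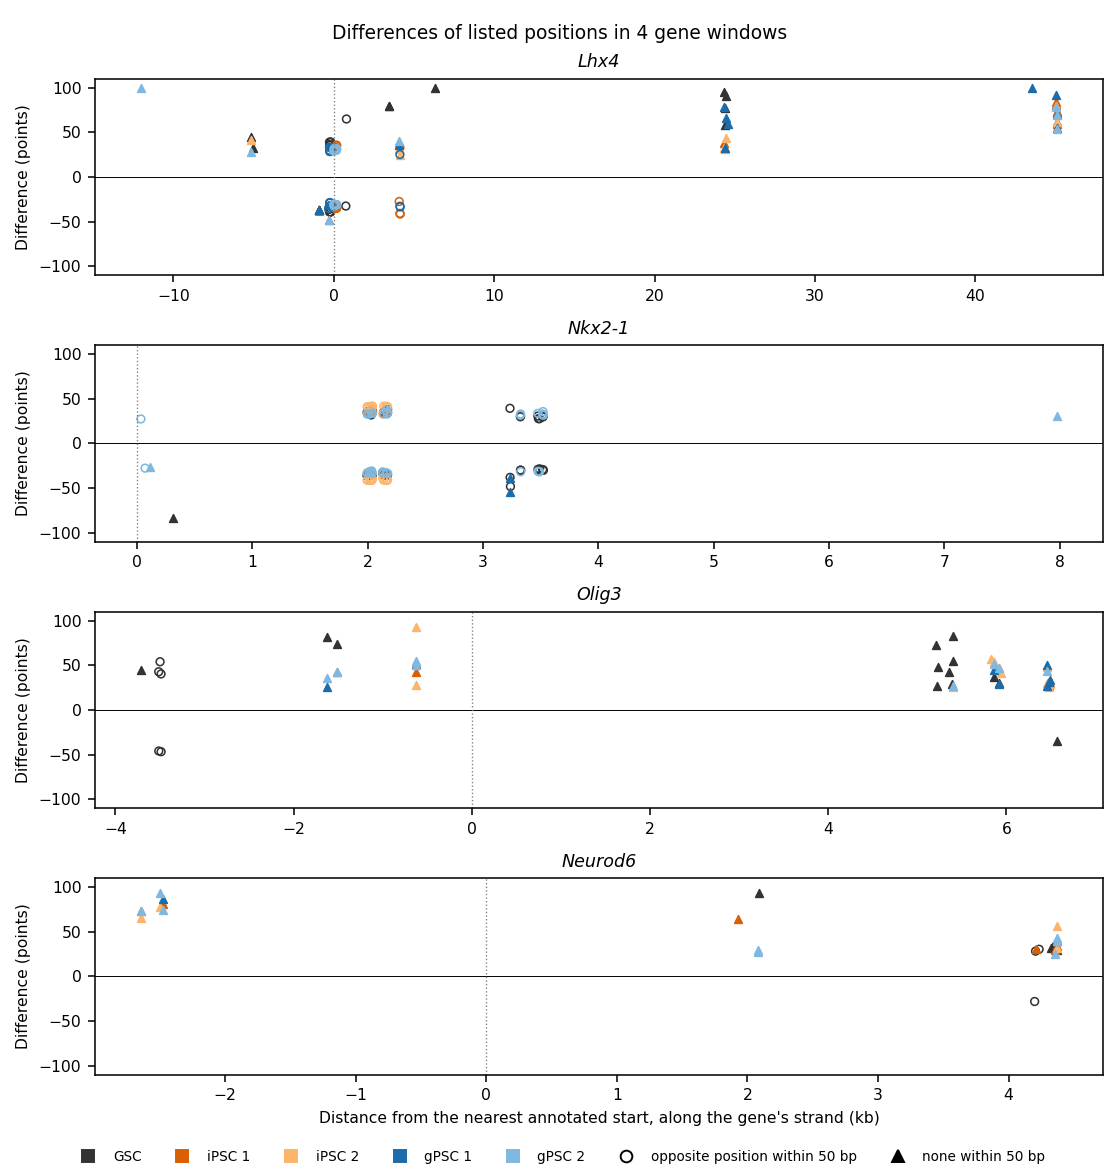
Difference of each listed position (vertical axis, percentage points) by distance from the nearest annotated start along the gene's strand (horizontal axis, kb) in Lhx4, Nkx2-1, Olig3 and Neurod6. Colours are libraries, open circles have an opposite listed position within 50 bp, and filled triangles have none. Lhx4 at its start and Nkx2-1 at 2 to 4 kb show mirrored circles, whereas Olig3 and Neurod6 show mainly triangles above 0.

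Nkx2-1, which specifies the ventral forebrain, thyroid and lung, had the opposite character. It had 20 hyper and 24 hypo positions in GSC, 10 and 6 in iPSC 1, 12 and 13 in iPSC 2, and 18 and 18 in gPSC 2. Only 1, 0, 0 and 2 of these positions were unopposed in GSC, iPSC 1, iPSC 2 and gPSC 2. In gPSC 1 only 2 positions were listed, both hypo. Nkx2-2, a ventral progenitor factor also needed for pancreatic endocrine cells, had 3 hyper and 0 hypo positions in GSC, 18 and 13 in iPSC 1, 28 and 21 in iPSC 2, 12 and 14 in gPSC 1, and 11 and 0 in gPSC 2. Beyond the end of this gene 3 positions at chr2:147175538-147175569 were hyper by a mean of 50.6 points in iPSC 1, 47.3 points in iPSC 2 and 57.6 points in gPSC 2. The line gPSC 1 had instead a stretch of 6 hypo positions from −8443 to −8362 bp from the start used here, with a mean of −76.7 points.

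Nkx6-2 had 13 hyper and 14 hypo positions in GSC, 3 and 3 in iPSC 1, 5 and 2 in iPSC 2, 9 and 6 in gPSC 1, and 3 and 2 in gPSC 2. Olig2, the factor of motor neurons and oligodendrocytes, was mixed in every library, with 14 hyper and 13 hypo positions in GSC and 9 and 3 in gPSC 2. A stretch of 4 positions at chr16:91232495-91232542, beyond its end, averaged 38.1 points in gPSC 1 and 38.4 points in gPSC 2. Olig1 had at most 3 listed positions in any library.

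Among the LIM homeodomain genes, Lhx3, a partner of Lhx4 in motor neurons and pituitary, was hyper in 4 libraries. It had 6 hyper and 0 hypo positions in GSC, 3 and 1 in iPSC 1, 7 and 1 in iPSC 2, 9 and 1 in gPSC 1, and 4 and 1 in gPSC 2. The position chr2:26199936, just beyond the gene's end, was hyper in all 5 libraries, by 84.5 points in GSC, 74.0 points in iPSC 1, 71.3 points in iPSC 2, 83.6 points in gPSC 1 and 68.6 points in gPSC 2. Lhx4 had 19 hyper and 11 hypo positions in GSC, 13 and 15 in iPSC 1, 9 and 0 in iPSC 2, 16 and 12 in gPSC 1, and 14 and 10 in gPSC 2. Just beyond the far end of this gene 3 positions at chr1:155696909-155697012 were hyper in every library, with means of 71.7 points in GSC, 72.1 points in iPSC 1, 70.0 points in iPSC 2, 72.6 points in gPSC 1 and 67.2 points in gPSC 2. The same gene therefore had mirrored positions at its start and hyper positions of a single direction at its end.

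Lhx2, needed for the cortex and the eye, was mixed throughout, with 33 hyper and 16 hypo positions in GSC, 5 and 9 in iPSC 1, 20 and 11 in iPSC 2, 16 and 16 in gPSC 1, and 13 and 5 in gPSC 2. Without opposed positions it had 22 hyper and 4 hypo in GSC and 9 and 1 in gPSC 2. Lhx5, a forebrain and spinal interneuron factor, had 11 hyper and 9 hypo positions in GSC, 0 and 6 in iPSC 1, 7 and 8 in iPSC 2, 8 and 15 in gPSC 1, and 8 and 6 in gPSC 2. Its 6 hypo positions in iPSC 1 averaged −34.4 points, and they made it hypo in that line and in no other. Isl1, the motor neuron determinant, had 14 hyper and 13 hypo positions in gPSC 2, of which 1 was unopposed, and 4 or fewer listed positions in each other library. Lhx9 had no hypo position in any of the 4 pluripotent lines and 7 hyper positions with a mean of 81.7 points in iPSC 2.

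Of the forebrain homeodomain and POU genes, Otx1, a cortical and sensory organ factor at chr11:21994764-22001651, had 22 hyper and 13 hypo positions in GSC, 1 and 4 in iPSC 1, 3 and 6 in iPSC 2, 9 and 3 in gPSC 1, and 9 and 9 in gPSC 2. Its 4 positions at chr11:21996952-21996973, inside the gene, were hyper by a mean of 80.4 points in GSC, 72.0 points in gPSC 1 and 62.9 points in gPSC 2. They were not listed in either iPSC line. Around the higher-coordinate edge of the gene's span gPSC 2 had 7 hypo positions with a mean of −83.6 points. The strand of Otx1 was not given in the sources used here, so this edge may be its start or its end. In GSC the same 7 positions were hypo, between −27.1 and −26.6 points, and in each case the neighbouring base was hyper.

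Emx2, a factor of cortical area identity, had 23 hyper and 19 hypo positions in GSC, 10 and 12 in iPSC 1, 21 and 11 in iPSC 2, 13 and 12 in gPSC 1, and 0 and 8 in gPSC 2. The 8 hypo positions of gPSC 2 lay 1193 to 1282 bp after the start and averaged −66.8 points. Dlx1, a factor of forebrain interneurons, had 10 hyper and 3 hypo positions in GSC, 1 and 3 in iPSC 1, 4 and 5 in iPSC 2, 8 and 2 in gPSC 1, and 6 and 1 in gPSC 2. In gPSC 1, 6 of its hyper positions lay from 13 to 191 bp after the start, 5 of them between 25.1 and 26.6 points, and no other library listed any of these 6. Its neighbour Dlx2 was hyper in GSC and gPSC 2, with 9 hyper and 1 hypo position in GSC and 7 and 0 in gPSC 2, and the windows of both genes share 7 listed positions. Pou3f2, a neuronal POU factor, was the only member called in opposite directions from all listed positions, against 1.69% of all genes. It was hyper in iPSC 1 with 3 positions at a mean of 40.3 points and hypo in gPSC 1 with 3 positions at a mean of −56.7 points. From unopposed positions 5 members had opposite calls, against 2.73% of all genes, namely Pou3f2, Sox1, Otx1, Emx2 and Dlx2. Opposite calls can come from different positions, and every Otx1 position listed in more than 1 library had the same direction in each. Pou3f3 had no listed position in iPSC 1 and between 10 and 28 in the other libraries.

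The iPSC and gPSC lines were compared by their numbers of listed positions, with a two-sided exact permutation test over 2 lines against 2, whose smallest possible p is 0.333. No difference between them could therefore pass a threshold of 0.05. Where the lines of the 2 kinds do not overlap, p always has this smallest value, so it adds nothing for members picked by that rule. Hyper positions were fewer in both iPSC lines than in both gPSC lines for 8 members, against 10.9% of all genes, and more numerous in both iPSC lines for 1 member, against 4.07%. These 8 were Pax2, Pax5, Isl1, Lhx4, Lhx5, Otx1, Dlx1 and Dlx2, and the other was Nkx2-2. Over the whole tables, too, fewer hyper positions were listed in the iPSC lines, 118235 and 131566, than in the gPSC lines, 135001 and 139170. Member windows held more listed positions per library than those of all genes, with medians of 10.6 and 3.6. The windows of Dlx1 and Dlx2 share 7 listed positions, so these members are not separate cases. The part of each of these in the member counts was not tested.

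Measured as the distance between the nearest lines of the 2 kinds, the largest gaps were those of Nkx2-2, Otx1, Pax5 and Pax2, followed by Dlx1 and Dlx2, which tied and of which Dlx1 is described. Pax2 had 24.5 ± 3.54 hyper positions in iPSC and 33.5 ± 3.54 in gPSC (SD, n = 2 lines each; exact permutation p = 0.333). Pax5 had 23.0 ± 1.41 in iPSC and 30 ± 1.41 in gPSC, Otx1 2.0 ± 1.41 in iPSC and 9.0 ± 0.0 in gPSC, and Dlx1 2.5 ± 2.12 in iPSC and 7.0 ± 1.41 in gPSC (SD, n = 2 lines each; exact permutation p = 0.333 for each). Nkx2-2 ran the other way, with 23.0 ± 7.07 in iPSC and 11.5 ± 0.707 in gPSC (SD, n = 2 lines each; exact permutation p = 0.333). By the difference of means Isl1 was larger than Pax5, Otx1 and Dlx1, with 1.0 ± 1.41 in iPSC and 8.5 ± 7.78 in gPSC (SD, n = 2 lines each; exact permutation p = 0.333), but its lines lay closer together.

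Without opposed positions the gap remained for Pax5, Otx1 and Dlx1. Unopposed hyper positions of Pax5 were 21 and 20 in the iPSC lines, against 28 and 29 in the gPSC lines, those of Otx1 1 and 2 against 8 and 7, and those of Dlx1 0 and 2 against 7 and 5. For Pax2 the lines overlapped, with 22 and 20 in iPSC against 20 and 35 in gPSC, and for Nkx2-2 they overlapped as well, with 5 and 7 in iPSC against 3 and 11 in gPSC. With the listed differences limited to at least 50 points, the iPSC minus gPSC difference in hyper positions was −2.0 for Pax2, −3.0 for Pax5, −4.5 for Otx1, −0.5 for Dlx1 and −0.5 for Nkx2-2. With q of at most 0.001 it was −3.0 for Pax2, −4.0 for Pax5, −6.0 for Otx1, −0.5 for Dlx1 and 9.0 for Nkx2-2, so that Dlx1 had almost no difference left under either limit. From unopposed positions 6 members were lower in both iPSC lines, against 10.6% of all genes, and 0 were higher, against 3.13%. Hypo positions were fewer in both iPSC lines for 3 members, Pax2, Neurog2 and Emx1, against 2.62% of all genes, and more numerous for 3 members, Neurog3, Neurod2 and Dlx1, against 5.86%. From unopposed positions the numbers were 1 lower against 1.5% and 2 higher against 5.44%.

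**Figure D5:**
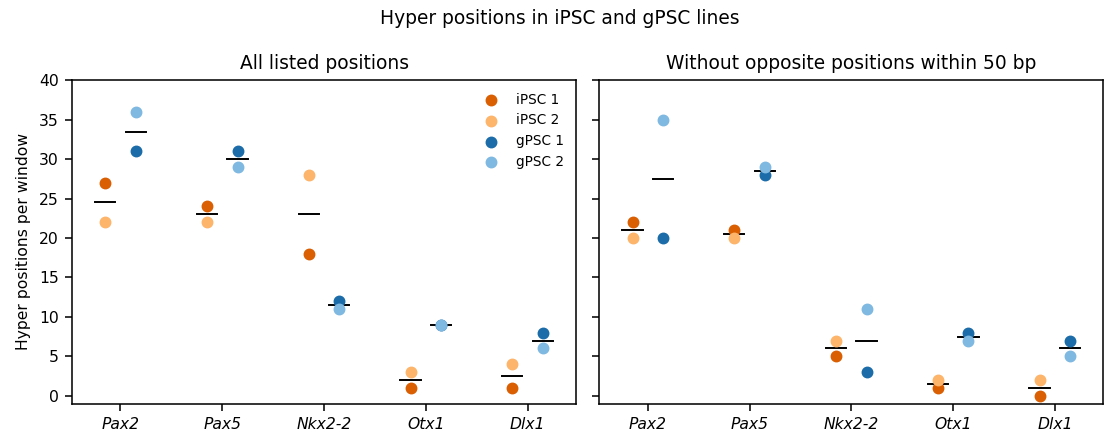
Hyper positions in the windows of the 5 members described for the distance between the nearest iPSC and gPSC lines, for all listed positions (left) and for unopposed positions (right). Points are single lines, iPSC left of gPSC for each gene, and bars are means of 2 lines. The lines stay apart in both panels for Pax5, Otx1 and Dlx1, and they overlap on the right for Pax2 and Nkx2-2.

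Along the genes, unopposed hyper positions of the members lay mostly far from the starts. Distances could be given for the 32 members with a RefSeq start. More than 5000 bp away lay 51.3% of them in GSC, 76.7% and 55.7% in iPSC 1 and 2, and 56.2% and 58.2% in gPSC 1 and 2. The Pax genes and Sox1 gave 148 of the 321 unopposed hyper positions in GSC. Within 500 bp of a start lay 3.67% of unopposed hyper positions in GSC, 0.971% and 6.59% in iPSC 1 and 2, and 13.7% and 5.82% in gPSC 1 and 2. The opposed positions were nearer to the starts, with 16.3% within 500 bp in GSC, 25% and 17.0% in iPSC 1 and 2, and 16.4% and 41.7% in gPSC 1 and 2. Of unopposed hypo positions 20.2% lay within 500 bp in GSC, 8.93% and 4.08% in iPSC 1 and 2, and 9.09% and 36.1% in gPSC 1 and 2. These shares are descriptions, were not set beside all genes and were not tested. The deposited promoter annotation does give a background. Promoters held 4.67% to 15.3% of the members' unopposed hyper positions over the 5 libraries, against 8.05% to 10.4% of all such positions. Of opposed positions they held 26.2% to 57.3%, against 44.6% to 50.1%. The placement is thus not shown to be particular to the members.

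Stretches of at least 3 unopposed positions of a single direction, no more than 100 bp from one to the next, numbered 84 for hyper and 26 for hypo over the 5 libraries. Hyper stretches occurred in 22 members and hypo stretches in 15. Stretches were counted per member, so the GSC hyper stretch at chr2:71538908-71538912 was counted for both Dlx1 and Dlx2, whose windows overlap. Listed positions 1 bp apart were present in 14 of the 84 hyper stretches and in 0 of the 26 hypo stretches. Positions so close together can be read from the same fragments and are not independent measurements. No 2 listed positions were therefore adjacent in the hypo stretches of Pax2, Pax3, Pax5, Emx2, Otx1, Sox1, Neurod1 and Nkx2-2 named above. Adjacent positions that were both hypo were also rare over all listed positions, so this is not particular to the members. Outside the RefSeq starts the bases around a listed position were not read here.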

How the data were processed

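Reduced representation bisulfite sequencing was done on genomic DNA of 6 mouse lines. Bismark, Bowtie2, GATK, methylKit and the builds GRCm38 and mm10 are named, without versions or roles, per the submitters' processing notes. Their settings, coverage minimums and strand handling were not given in the sources used here. In 10 tables each listed position has a p-value and a q-value that the authors deposited, and a methylation difference in percent points, also deposited by the authors. The tables of lower methylation hold the same difference with a negative sign. The strand column holds + in every row.

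Positions were counted in GRCm38 windows of 5000 bp around gene spans from a RefSeq gene table (GRCm38.p6), with Python 3.11.15, pandas 2.3.3, numpy 2.4.6, scipy 1.17.1 and matplotlib 3.10.9. The window counting was tested on simulated tables. Genes were called with at least 3 listed positions, 80% of them in 1 direction; for iPSC and gPSC both lines had to be called. No count model can be fitted to tables of called positions, so no p-value is adjusted over genes. The lines share the comparison library, and GSC has 1 library. A p-value over lines only ranks a difference among the regroupings of the iPSC and gPSC lines. Listed genes come from textbook knowledge; members, lists, windows and thresholds were chosen with earlier results of these data known. Described in full are, for GSC, iPSC and gPSC and each direction, the 5 members with the most listed positions, each member whose call held in both lines, the 5 largest gaps between iPSC and gPSC lines that do not overlap, and members called in opposite directions; other members were added after their values were seen. RefSeq promoter sequences were matched by symbol. Alternatives changed the flank, the minimum, the share, the q and difference limits, the treatment of opposite neighbours, and the lines used.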

Additional observations from a re-analysis of the deposited data

Results flagged for a closer look

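For 9 differences between kinds of line, every line of one kind had a mean difference above 0 and every line of the other below 0, with at least 3 listed positions in each; they are listed for that reason. In 2 further contrasts with opposite signs, Neurog2 between GSC and iPSC and Neurod1 between GSC and gPSC, a line had only 2 listed positions. With 2 lines against 2 the smallest exact permutation p is 0.333, and with 1 GSC library there is no test. The mean is over all listed positions of a window, and the number of positions of each direction enters it.

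Between iPSC and gPSC this was so for Pax6, with −8.16 points in iPSC and 16.2 points in gPSC (difference −24.3), for Neurod2, with −14.9 points in iPSC and 11.4 points in gPSC (−26.3), and for Dlx1, with −23.8 points in iPSC and 32.3 points in gPSC (−56.2). These differences were not tested beyond the exact permutation p of 0.333 that is the smallest possible. For Neurod2 the opposite signs depend on lines near 0, −0.389 points in iPSC 2 and 2.94 points in gPSC 1. Without opposed positions the iPSC lines of Pax6 had −17.9 and 20.1 points, so that they no longer lay on 1 side, and those of Dlx1 had −73.5 and −25.6 points, against 29.3 and 59.1 points in the gPSC lines. The iPSC lines of Neurod2 had −29.3 and 4.97 points, so they lay on both sides as well. Its gPSC lines had no unopposed position in gPSC 1 and 29.6 points in gPSC 2.

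Between GSC and iPSC the same held for Pax6, with 23.1 points in GSC and −8.16 points in iPSC (difference 31.3), Neurog3, with 0.918 points in GSC and −1.75 points in iPSC (2.67), Neurod2, with 16.8 points in GSC and −14.9 points in iPSC (31.7), Otx1, with 14.7 points in GSC and −29.4 points in iPSC (44.1), and Dlx1, with 43.1 points in GSC and −23.8 points in iPSC (67.0). Between GSC and gPSC it held for Nkx6-2, with −6.52 points in GSC and 16.7 points in gPSC (−23.2). GSC has 1 library, and none of these 6 differences was tested. The values of Neurog3 are near 0 in both kinds, and so is that of Neurod2 in iPSC 2, at −0.389 points. Without opposed positions Nkx6-2 had 12.4 points in GSC and 31.9 and 93.8 points in the gPSC lines, so that its signs were no longer opposite. The value of 93.8 points in gPSC 2 is that of 1 position. GSC then had 35.1 points for Pax6 and 34.8 points for Neurod2, whose iPSC lines lay on both sides of 0. For Dlx1 it had 50.02 points, and the iPSC lines stayed below 0, with only 2 unopposed positions in iPSC 1. Neurog3 had no unopposed position in GSC. Otx1 had 40.2 points in GSC against −39.7 and −24.99 points in the iPSC lines. Yet every Otx1 position listed in both GSC and an iPSC line had the same direction in both. One such position, chr11:22000866, was hypo at −77.2 points in GSC and −84.4 points in both iPSC lines. It counted as opposed in GSC, where its neighbour chr11:22000865 was listed as hyper, and as unopposed in the iPSC lines. The means thus differ by which positions were listed and kept.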

How the results depend on the processing

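The counts of called members depended on how calls were made. The 6 members hyper in GSC became 2 with the gene span alone, 21 with a share of 60%, 2 with a share of 100%, 13 without opposite neighbours at 1 bp and 16 without those within 50 bp; the 2 hypo in GSC became 1 with a flank of 10000 bp, a minimum of 5 positions, q of at most 0.001 or differences of at least 50 points, and 0 with a share of 100%. The 3 hyper in both iPSC lines became 1 with a flank of 2000 bp, the gene span alone or a minimum of 5, 5 with a minimum of 1 and 6 with a share of 60%, and single lines gave 5 to 8. The 5 hyper in both gPSC lines became 3 with a flank of 2000 or 10000 bp or differences of at least 50 points, 2 with q of at most 0.001, 1 with the gene span alone or a share of 100%, 8 with a minimum of 1, and 7 to 10 in single lines. The hypo counts of 0 became 1 with a share of 60% in both kinds, and single lines gave 1 to 2 in iPSC and 1 in gPSC. Between iPSC and gPSC, signs turned for 5 values. For Nkx2-2, hyper positions (11.5) gave −0.5 with differences of at least 50 points and −1.0 without opposite neighbours within 50 bp; hypo positions (10) gave −2.5 with differences of at least 50 points, −1.5 without opposite neighbours at 1 bp and −2.5 without those within 50 bp; and the mean difference (−15.1) gave 22.1, 14.7 and 28.4 points under these 3 settings and −45.5 to 15.2 points with either gPSC line left out (15.2 without gPSC 2). Otx1 hypo positions (−1.0) gave 0.5 with the gene span alone or without opposite neighbours at 1 bp and −4.0 to 2.0 with either gPSC line left out (2.0 without gPSC 2), and Pax5 hypo positions (8.5) gave −1.0 to 18 with either iPSC line left out (−1.0 without iPSC 2). The causes were not tested. A fit with the replicate block, pairing lines of the same number, gives the same differences by arithmetic (Pax2 hyper −9.0, exact sign-flip p = 0.5, the smallest it can give) and so tests nothing further; the numbers are only names, and paired lines did not deviate together (correlation −0.129). Depth is unknown, so whether an unlisted position was measured cannot be told.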

Other observations

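Of 60 other neural genes, 4 were hyper in both iPSC lines, against 16.7% of all genes, and 4 in both gPSC lines, against 22%; none was hypo in both lines of a kind. Rbfox3, the gene of the neuronal marker NeuN, was hyper in all 5 libraries, with 114 hyper and 22 hypo positions in GSC, 75 and 5 in iPSC 1, 65 and 10 in iPSC 2, 57 and 7 in gPSC 1, and 81 and 3 in gPSC 2. Dbx1, Dbx2 and Lmx1a, which pattern the neural tube, were the other genes hyper in both iPSC lines, and Lhx6, the astrocyte gene Gfap and the receptor gene Notch1 the others hyper in both gPSC lines. Mixed windows made up 45.0% to 71.7% of this list over the 5 libraries, against 14.5% to 26.4% of all genes; the list has a median of 10.5 listed positions per window and library.

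Of 48 mesoderm and endoderm regulators, 6 were hyper in both iPSC lines, against 16.7% of all genes, among them Gata4, Tbx4 and Runx1, and 3 in both gPSC lines, against 22%, namely Gata1, Sox7 and Runx1. None was hypo in both lines of a kind. Runx1, the regulator of blood formation, was hyper in all 5 libraries, with 39 hyper and 5 hypo positions in GSC, 19 and 2 in iPSC 1, 24 and 6 in iPSC 2, 25 and 5 in gPSC 1, and 23 and 1 in gPSC 2. Mixed windows made up 35.4% to 56.2% of this list, against the same 14.5% to 26.4% of all genes, with a median of 8.4 listed positions.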
